A study of Mus musculus with 4 samples.

Results

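The Zfp-numbered zinc finger genes are the mouse genes whose symbol is Zfp followed by a number only. They were followed in immortalized murine dermal fibroblasts that carry the *Tmpo* gene (*Tmpo* WT, Lap2alpha +/+) or lack its product LAP2alpha (*Tmpo* KO, Lap2alpha -/-). The deposited count files hold 352 such symbols, Zfp36 left out. A gene was kept if its most abundant transcript ID had at least 20 counts in each of the 4 libraries. This left 255 members among 32757 transcript IDs, 13855 of which were tested. The choice of members used the counts of all 4 libraries, and it removes genes that are nearly silent in either genotype. A gene switched off in 1 genotype therefore could not be a member. Counting was per transcript ID, with reads that fit several IDs set aside, so expressed genes can miss the limit too. Of the 97 genes left out, 66 have several IDs, against 14 of the 255 members.

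Each genotype was sequenced at passage 34 (replicate 1) and at passage 42 (replicate 2), which gave 2 libraries of total RNA per genotype after depletion of ribosomal RNA. The sources name a single line per genotype, so genotype and line cannot be told apart. They describe no separate cultures beyond the passages, so the p-values measure only how far these libraries spread, and that spread may be technical. All cells were untreated. Libraries had between 12168433 and 19603812 reads in transcripts. Counts of the most abundant *Tmpo* transcript ID were 903 and 1324 in *Tmpo* WT and 6 in each *Tmpo* KO library. The paper describes a deletion that removes LAP2alpha specifically, and other products of *Tmpo*, such as LAP2beta, were not followed here. Fibroblast markers summed to between 11997 and 16212 counts scaled to library size (CPM), against at most 43.9 CPM for any list of keratinocyte, leukocyte, endothelial or melanocyte markers. The fibroblast sum rests on *Vim*, *Col1a1*, *Col1a2*, *Col3a1*, *Thy1* and *S100a4*, each with a mean of at least 595 CPM. *Dcn*, *Fbln2* and *Pdgfra* had means of 6.75, 4.74 and 2.97 CPM, below the melanocyte marker *Tyr* at 33.0 CPM. *Cd68*, *Itgam* and *Tek* were listed at 0, and so was the fibroblast marker *Pdgfrb*. Reads that fit several transcript IDs were set aside, so a 0 does not show that a gene was silent. *Thy1*, another fibroblast marker, was higher in *Tmpo* KO, with 3743 and 4307 counts in *Tmpo* WT and 20957 and 14838 in *Tmpo* KO.

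Most proteins of this family bind DNA through arrays of C2H2 fingers, in which paired cysteines and histidines hold a zinc ion. Many also carry a KRAB domain, which recruits Trim28 and, through it, the histone methyltransferase Setdb1 and HP1 proteins, so that bound sites are silenced. Such genes arose by repeated local duplication, lie in clusters and are best known for repressing retroelements. Other members are no repressors of this kind but act in RNA handling, on ribosomes or in ubiquitin and SUMO transfer.

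Sequences are shown for 4 members. *Zfp951* is the gene that passed the test between genotypes, *Zfp709* had the next highest fold change, and *Zfp52* and *Zfp53* are neighbours on chromosome 17 with opposite differences. The 250 bases before the annotated start are given 5′ to 3′ from RefSeq, GRCm38.p6, with CpG in capitals. The windows are chr5:104860028-104860277 (minus strand, the first of 2 starts in the table), chr8:71881818-71882067 (plus), chr17:21535289-21535538 (plus) and chr17:21488738-21488987 (plus).
Zfp951: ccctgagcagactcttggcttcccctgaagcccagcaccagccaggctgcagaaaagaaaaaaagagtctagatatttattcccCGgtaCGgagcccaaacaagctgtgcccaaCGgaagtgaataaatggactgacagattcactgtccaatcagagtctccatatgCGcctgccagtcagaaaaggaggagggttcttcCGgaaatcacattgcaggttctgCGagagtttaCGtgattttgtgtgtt
Zfp709: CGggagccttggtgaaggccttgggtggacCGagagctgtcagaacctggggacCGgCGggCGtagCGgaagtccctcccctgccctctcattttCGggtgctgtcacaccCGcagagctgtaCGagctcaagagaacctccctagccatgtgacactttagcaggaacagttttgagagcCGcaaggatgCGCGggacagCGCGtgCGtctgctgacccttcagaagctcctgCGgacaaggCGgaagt
Zfp52: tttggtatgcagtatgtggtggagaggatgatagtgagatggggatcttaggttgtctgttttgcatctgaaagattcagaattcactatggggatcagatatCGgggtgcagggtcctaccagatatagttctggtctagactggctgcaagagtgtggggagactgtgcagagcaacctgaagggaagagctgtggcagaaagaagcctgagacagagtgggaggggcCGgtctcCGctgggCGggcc
Zfp53: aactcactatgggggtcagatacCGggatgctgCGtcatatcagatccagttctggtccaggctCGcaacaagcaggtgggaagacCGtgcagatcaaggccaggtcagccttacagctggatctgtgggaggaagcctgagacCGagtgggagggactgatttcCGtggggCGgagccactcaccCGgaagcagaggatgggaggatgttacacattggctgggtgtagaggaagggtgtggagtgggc
The *Zfp709* window holds 17 CpG, that of *Zfp53* 8, that of *Zfp951* 7 and that of *Zfp52* 4. The best local alignment of the *Zfp52* and *Zfp53* windows spans 180 columns with 73.9% identity, whereas no other pair aligned over more than 36 columns. CCAAT, read on both strands, occurs once in the *Zfp951* and *Zfp53* windows and is not found in those of *Zfp709* and *Zfp52*.

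The first complete finger of *Zfp951*, *Zfp52* and *Zfp53* is shown from the GENCODE coding sequence of NCBIM37, with the codons of the 2 cysteines and 2 histidines in capitals.
Zfp951: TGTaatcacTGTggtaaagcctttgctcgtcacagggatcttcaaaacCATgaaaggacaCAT
Zfp52: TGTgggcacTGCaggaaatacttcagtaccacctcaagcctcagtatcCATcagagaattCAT
Zfp53: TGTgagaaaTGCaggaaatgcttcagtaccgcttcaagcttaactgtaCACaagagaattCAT
These are bases 502 to 564, 562 to 624 and 682 to 744 of the coding sequences. Of 63 bases, 50 are the same in *Zfp52* and *Zfp53*, 31 in *Zfp951* and *Zfp52*, and 25 in *Zfp951* and *Zfp53*. The 3 genes encode 10, 14 and 15 fingers of this pattern.

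Among the members, 118 match the KRAB A box pattern used here, 131 do not, and 6 had no coding sequence in the annotation. A protein without a match is not shown to lack the domain, since variant boxes escape the pattern. At least 3 fingers were found in 225 members and none in 8. Positions were known for 249 members on 20 chromosomes, with 63 on chromosome 7, 37 on chromosome 17 and 23 on chromosome 13. Levels were moderate. The median member had a mean of 15.4 CPM over the 4 libraries, compared to 15.0 CPM for all tested transcript IDs. The quartiles were 6.67 and 38.3 CPM.

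The most abundant member was *Zfp488*, known from oligodendrocyte development, with 12917 and 21709 counts in *Tmpo* WT and 22418 and 23774 in *Tmpo* KO at passages 34 and 42. *Zfp277* followed with 7900 and 14815 counts in *Tmpo* WT and 14923 and 16226 in *Tmpo* KO. Per kilobase of transcript the order was the other way, with 344 CPM for *Zfp277* and 296 CPM for *Zfp488*. Next came *Zfp65* with 74.6 CPM per kilobase and *Zfp106*, which encodes an RNA-binding protein, with 52.0. The ratio of *Zfp488* to *Zfp277* counts stayed between 1.47 and 1.64 in the 4 libraries. Of the 50-base words of the *Zfp488* transcript, 4.14% also occur in other coding genes, most often *Cd200r3*, and 0.512% of those of *Zfp277* do, most often in *Zfp488*; its part in these levels was not tested. Together the 2 genes made up between 18.0% and 24.1% of the summed level of all members.

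That sum was 9732 and 11096 CPM in *Tmpo* WT and 9565 and 10880 CPM in *Tmpo* KO, so the genotypes overlapped. Without *Zfp488* and *Zfp277* it was 7979 and 8764 CPM in *Tmpo* WT and 7264 and 8802 CPM in *Tmpo* KO. Members that match the KRAB pattern summed to 2658 and 2891 CPM in *Tmpo* WT and to 2378 and 2811 CPM in *Tmpo* KO. At the other end, *Zfp791* and *Zfp711* had 22 to 31 and 24 to 32 counts per library. The members just inside the limit of 20 counts by their lowest library were *Zfp456*, *Zfp809* and *Zfp982*, each with 20. *Zfp455* and *Zfp786*, whose lowest library had 18 counts, and *Zfp366*, with 16, lie just outside it.

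The first question was which members differ between *Tmpo* KO and *Tmpo* WT fibroblasts. *Zfp951* was the 1 member that passed edgeR's quasi-likelihood test at an adjusted p under 0.05, and it was higher in *Tmpo* KO. This is 0.392% of the 255 members, whereas 2.75% of all tested transcript IDs were called, 1.51% as higher and 1.24% as lower in *Tmpo* KO. Without adjustment, 16 members (7 higher, 9 lower) had a p under 0.05, or 6.27%, against 12.8% of all tested IDs. A log2 fold change beyond 1 was measured for 5 members, or 1.96%, against 7.23%. The SD of the members' log2 fold changes was 0.377, compared to 0.594 over all tested IDs and 0.688 over those between the members' CPM quartiles. Of 97 genes that missed the count limit, 23 were tested and 1 was called. That gene, *Zfp991*, reached 1 CPM in *Tmpo* KO only, so it entered the test through the genotype in which it is high. The plot of fold change against level shows the members as a narrow band with *Zfp951* above it. Members had to pass the count limit in every library, whereas the other tested IDs needed 1 CPM in 1 genotype only. That limit keeps out genes nearly silent in either genotype, so it can narrow the members' spread and lower these shares. How much it does so was not tested. With at least 1 CPM asked of all 4 libraries, 2.54% of tested IDs were called, against 0.392% of members.

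**Figure D1:**
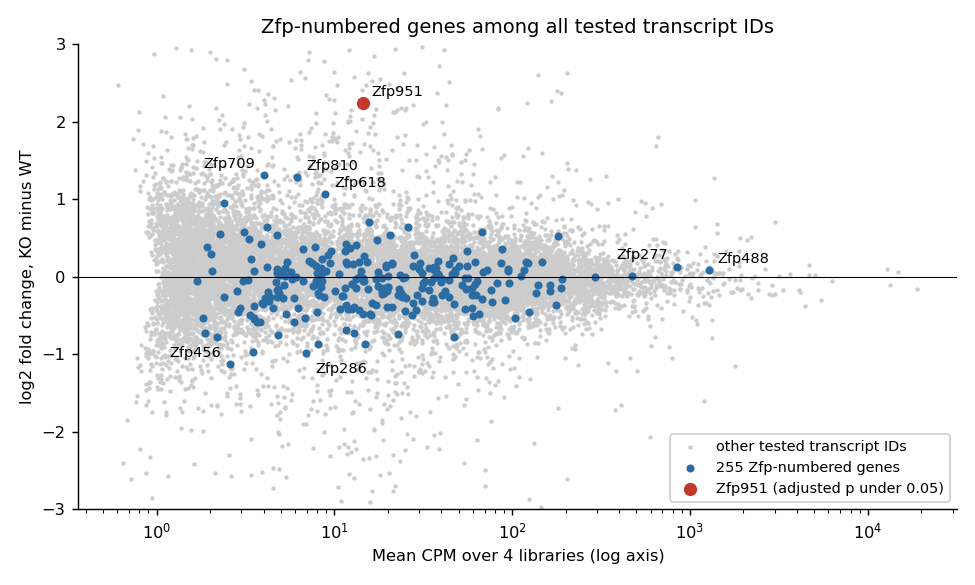
Log2 fold change, KO minus WT, against the mean CPM over the 4 libraries (log axis) for the 255 members (blue; *Zfp951* red) and the other tested transcript IDs (grey; 52 IDs beyond 3 on the log2 scale are not drawn). *Zfp951* lies at 2.24, the next member at 1.30.

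*Zfp951* lies on chromosome 5 of NCBIM37, 105242366 to 105246371, on the minus strand. It encodes a KRAB protein with 10 fingers. Its counts were 50 and 91 in *Tmpo* WT and 297 and 565 in *Tmpo* KO. This is 5.01 ± 1.13 CPM (SD, n = 2) in *Tmpo* WT and 23.8 ± 7.81 CPM (SD, n = 2) in *Tmpo* KO, and both *Tmpo* KO libraries stood above both *Tmpo* WT libraries. The log2 fold change was 2.24 (SE 0.344, edgeR adjusted p = 0.00517), with differences of 2.09 at passage 34 and 2.31 at passage 42. Only 0.299% of its 50-base words occur in another coding gene. Without the *Tmpo* WT library of passage 34 the log2 fold change was 2.05 and the edgeR adjusted p 0.0568; over all alternatives this p ran from 3.06e-11 to 0.0568.

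The nearest member to *Zfp951* was *Zfp326*, beyond the 500 kb used below to join genes into clusters. Its nearest tested neighbours were *Abcg3*, 118 kb away, with a log2 fold change of 0.58, and *Thoc2l*, 259 kb away on the other side, with 0.02. *Gbp9* at 261 kb had 0.28 and *Pkd2* at 308 kb had 0.12. None of these 4 was called, the lowest edgeR adjusted p being 0.683.

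The genes with the next highest fold changes did not pass the test, which has no term for passage, although their libraries separated by genotype. With the replicate number, which is the passage, as a block, edgeR called 7 members, 2.75% of the 255, against 7.88% of all tested IDs. These were *Zfp951*, *Zfp709*, *Zfp810*, *Zfp618*, *Zfp462*, *Zfp365* and *Zfp53*. *Zfp709* had 30 and 33 counts in *Tmpo* WT and 97 and 105 in *Tmpo* KO (log2 fold change 1.30, SE 0.371, edgeR adjusted p = 0.113). *Zfp810* had 58 and 37 counts in *Tmpo* WT and 108 and 208 in *Tmpo* KO (1.29, SE 0.427, edgeR adjusted p = 0.184). Its difference was 0.44 at passage 34 and 2.13 at passage 42. *Zfp618* had 82 and 72 counts in *Tmpo* WT and 230 and 189 in *Tmpo* KO (1.06, SE 0.354, edgeR adjusted p = 0.185). In all 3, both *Tmpo* KO libraries were higher than both *Tmpo* WT libraries at the scale of CPM. *Zfp982*, *Zfp52*, *Zfp992*, *Zfp697*, *Zfp985* and *Zfp608* followed with log2 fold changes between 0.94 and 0.58.

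At the low end, *Zfp456*, of the chromosome 13 cluster described further on, had 52 and 43 counts in *Tmpo* WT and 20 and 38 in *Tmpo* KO. Its log2 fold change was -1.13 (SE 0.440, edgeR adjusted p = 0.284), with -1.73 at passage 34 and -0.45 at passage 42. *Zfp286* had 129 and 119 counts in *Tmpo* WT and 52 and 116 in *Tmpo* KO (log2 fold change -0.99). In both genes the passage 34 library of *Tmpo* KO was the lowest of the 4 in CPM. *Zfp53*, by contrast, was lower at both passages (-1.01 and -0.71), with 243 and 282 counts in *Tmpo* WT and 164 and 211 in *Tmpo* KO (log2 fold change -0.87, SE 0.279, edgeR adjusted p = 0.17). *Zfp365* had 643 and 1018 counts in *Tmpo* WT and 442 and 810 in *Tmpo* KO (-0.78). *Zfp85*, *Zfp983*, *Zfp105*, *Zfp458*, *Zfp324* and *Zfp971* completed the 10 lowest, between -0.98 and -0.73, with edgeR adjusted p-values of at least 0.193. Of the 50-base words of *Zfp971*, 49.8% occur in other coding genes, as do 25.2% of those of *Zfp85*, 14.5% of *Zfp983* and 13.9% of *Zfp456*, so their reads are uncertain.

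**Figure D2:**
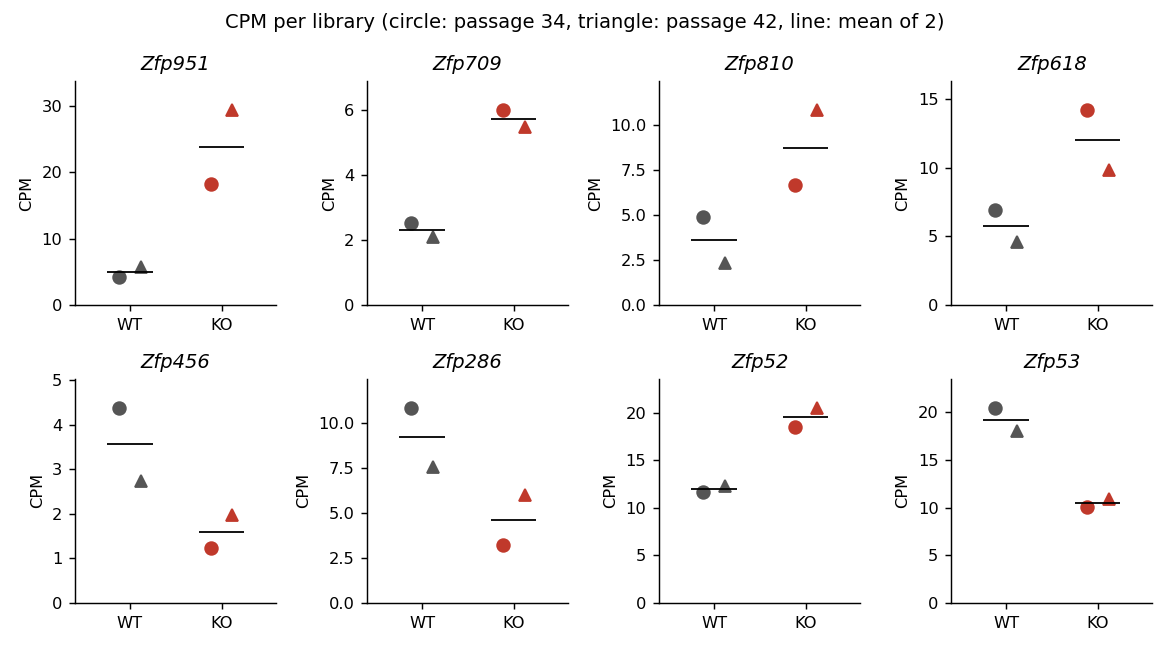
CPM per library in *Tmpo* WT (grey) and *Tmpo* KO (red) for 8 members, with circles for passage 34, triangles for passage 42 and a line at the mean of the 2 libraries; each axis starts at 0. *Zfp951* rises from 5.01 to 23.8 CPM on average, and *Zfp52* and *Zfp53* differ in opposite directions.

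Over the whole family, more members were lower than higher in *Tmpo* KO at passage 34, but not at passage 42. At passage 34, 172 of 255 members (67.5%) were lower in *Tmpo* KO, with a median difference of -0.20, whereas 49.2% of all tested IDs were lower. At passage 42 the count was 127 of 255 (49.8%) with a median of 0.00039, against 49.3% of all tested IDs. Of tested IDs between the members' CPM quartiles, 52.3% were lower at passage 34 and 44.1% at passage 42. The pattern was not particular to the members. The 21 genes named Zfp with a number and a letter had median differences of -0.39 at passage 34 and -0.10 at passage 42. With both passages the members' median log2 fold change was -0.07 and that of all tested IDs 0.02. It became 0.03 without the *Tmpo* KO library of passage 34 and -0.24 without that of passage 42. Both *Tmpo* KO libraries lay below both *Tmpo* WT libraries for 68 members (26.7%, against 19.9% of all tested IDs). They lay above for 29 members (11.4%, against 21.9%). For 117 members the difference changed sign between passages, as the plot of the 2 passages shows. It was below 0 at both for 91 members and above 0 at both for 47. Over the 13855 tested IDs these numbers were 4023 and 4231, so changes of sign were common there too.

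**Figure D3:**
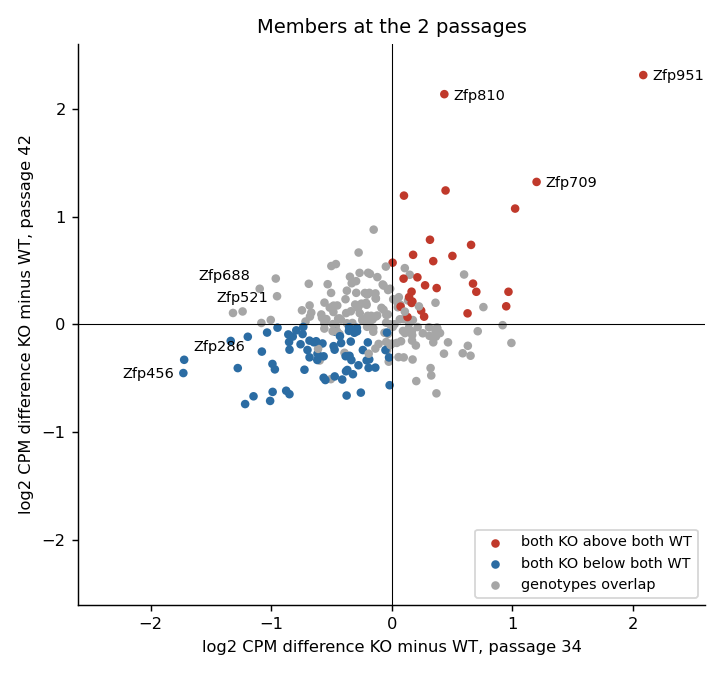
Log2 CPM difference, KO minus WT, at passage 34 (x axis) and passage 42 (y axis) for the 255 members, coloured by whether both *Tmpo* KO libraries lie above (red) or below (blue) both *Tmpo* WT libraries. The cloud is shifted to the left of 0 on the x axis (median -0.20) and centred on the y axis (median 0.00039).

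Members that match the KRAB pattern had a median log2 fold change of -0.09, and those without a match -0.06. Without the *Tmpo* KO library of passage 34 these medians were 0.02 and 0.05, and without that of passage 42 they were -0.28 and -0.22. Both *Tmpo* KO libraries lay below both *Tmpo* WT libraries for 38 of 118 (32.2%) and for 28 of 131 (21.4%), respectively, against 19.9% of all tested IDs. They lay above for 15 (12.7%) and 14 (10.7%), against 21.9%. The median level was 12.6 CPM in the group with a match and 23.3 CPM in the other. The other group is mixed, since variant boxes escape the pattern, and it includes *Zfp445*, which is on the list of KRAB repressors. Members that share under 1% of their 50-base words with other coding genes numbered 178, and their median was -0.07. Of 29 listed cofactors of KRAB proteins, 22 were tested and 0 were called, against 2.75% of all tested IDs in edgeR. For 22 genes, 0 called lies near that share. At an unadjusted p under 0.05 there were 0 in edgeR, against 12.8% of all tested IDs, and 0 in DESeq2. With the replicate block edgeR had 1. *Trim28*, the corepressor itself, had 5172 and 6188 counts in *Tmpo* WT and 7611 and 7886 in *Tmpo* KO (log2 fold change 0.08). *Setdb1*, *Uhrf1* and *Dnmt3b* were listed at 0 in every library. Reads that fit several transcript IDs were set aside, so a 0 here does not show that the gene was silent.

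The next comparison asked whether neighbouring members differ together. With genes at most 500 kb apart joined, 30 clusters of 3 or more Zfp-numbered genes were found, which hold 144 members, and 15 of these clusters have at least 4 members. The called member, *Zfp951*, lies in none of the 30. The clusters below are therefore described by their counts and medians.

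On chromosome 4, the cluster from *Zfp981* to *Zfp933* (145658647 to 147222475) holds 11 Zfp-numbered genes and 5 members, all 5 with a log2 fold change above 0 and a median of 0.58. *Zfp982* had 20 and 25 counts in *Tmpo* WT and 38 and 76 in *Tmpo* KO (log2 fold change 0.94). *Zfp985* had 32 and 36 against 55 and 78 (0.58), *Zfp992* 49 and 38 against 72 and 110 (0.64), and *Zfp984* 148 and 159 against 229 and 307 (0.41). In these 4 both *Tmpo* KO libraries exceeded both *Tmpo* WT libraries in CPM, as they did for 21.9% of all tested IDs. *Zfp933*, the most abundant of the cluster, overlapped with 0.03. The genes of this cluster are near copies, so reads could be split between them. Of the 50-base words, 48.7% of *Zfp984*, 39.9% of *Zfp992*, 12.7% of *Zfp985* and 7.27% of *Zfp982* occur in other coding genes. Without any 1 library the median lay between 0.30 and 0.71.

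The same cluster holds the called non-member, *Zfp991*, at 146506147 to 146554688 on the plus strand. It had 2 and 3 counts in *Tmpo* WT and 16 and 21 in *Tmpo* KO (log2 fold change 2.47, SE 0.562, edgeR adjusted p = 0.0417). It reached the 1 CPM asked of tested IDs in *Tmpo* KO only, so it was tested because it is high there. Its call therefore adds nothing to the picture of the cluster. These counts are few, and 71.1% of its 50-base words occur in other coding genes. The call was lost without either *Tmpo* WT library, with edgeR adjusted p-values of 0.508 and 0.484, and with no filter on low counts at 0.115. Elsewhere in the cluster, *Zfp979*, also no member, went the other way with 34 and 16 counts in *Tmpo* WT and 22 and 18 in *Tmpo* KO.

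The larger clusters of chromosomes 13 and 17 had medians below 0. So did all tested IDs of these chromosomes, with medians of -0.22 on chromosome 13 and -0.14 on chromosome 17. On chromosome 13, the 16 members from *Zfp712* to *Zfp273*, in the region of the candidate genes for the regulator of sex-limitation, had a median of -0.31. Both *Tmpo* KO libraries were below both *Tmpo* WT libraries for 9 of the 16, and above for 0. Over all tested IDs the shares were 19.9% below and 21.9% above, and neighbours in 1 cluster are not replicates. Values ran from -1.13 for *Zfp456* to 0.42 for *Zfp493*, and 12 were below 0. On chromosome 17, all 9 members between *Zfp871* and *Zfp414* were below 0, from -0.46 for *Zfp952* to -0.01 for *Zfp101*, with a median of -0.32. These medians were -0.12 on chromosome 13 and -0.07 on chromosome 17 without the *Tmpo* KO library of passage 34, and -0.54 and -0.57 without that of passage 42. Without the *Tmpo* WT library of passage 42 the chromosome 17 median was -0.21. With library totals in place of TMM factors, *Zfp101* came to 0.0084.

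The longest array, *Zfp160* to *Zfp13* on chromosome 17 (21145905 to 23736454), has 22 genes and 21 members, 19 of the genes with a KRAB match. Its median was -0.17, and it was 0.05 without the *Tmpo* KO library of passage 34, -0.54 without that of passage 42 and -0.07 without the *Tmpo* WT library of passage 34. Its members ranged from -0.87 to 0.70. *Zfp52* had 139 and 192 counts in *Tmpo* WT and 301 and 395 in *Tmpo* KO (log2 fold change 0.70, SE 0.273, edgeR adjusted p = 0.28). Its neighbour *Zfp53*, whose promoter and finger letters resemble those of *Zfp52* above, had -0.87. *Zfp983*, further along the array, had 112 and 182 counts in *Tmpo* WT and 68 and 140 in *Tmpo* KO (-0.87). *Tmpo* KO was above *Tmpo* WT at both passages for *Zfp52* and below it at both for *Zfp53*. Of their 50-base words, 0.354% and 0.785% occur in other coding genes.

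**Figure D4:**
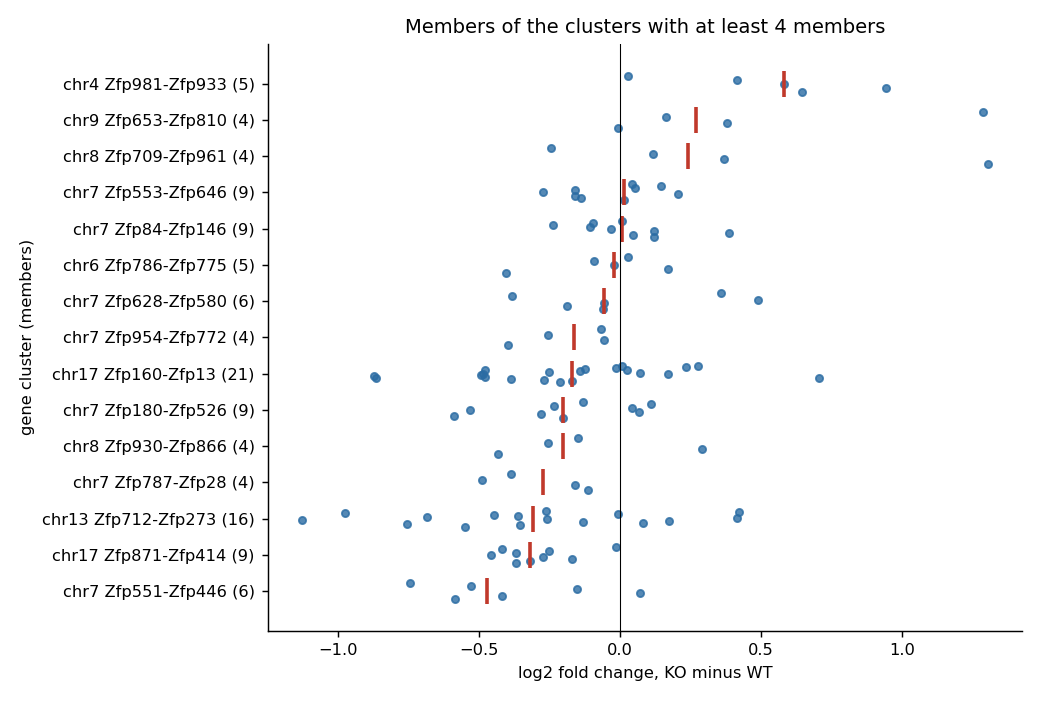
Log2 fold change, KO minus WT, of each member (points) in the 15 clusters with at least 4 members, ordered by their median (red bar), with the number of members in brackets. The chromosome 4 cluster has the highest median, 0.58, and the *Zfp551* to *Zfp446* cluster of chromosome 7 the lowest, -0.47.

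Chromosome 7 carries 7 of the 15 clusters. Their medians ranged from -0.47 for *Zfp551* to *Zfp446* to 0.01 for *Zfp553* to *Zfp646*. In the first, *Zfp324* had 349 and 436 counts in *Tmpo* WT and 259 and 349 in *Tmpo* KO (-0.75), and *Zfp329* had 0.07. *Zfp235* at -0.59 and *Zfp575* at 0.11 bounded the *Zfp180* to *Zfp526* array, which holds no match to the KRAB pattern. *Zfp784* and *Zfp865*, both in the *Zfp628* to *Zfp580* cluster, had -0.39 and 0.49. *Zfp940* at 0.39 and *Zfp260* at -0.24 bounded the *Zfp84* to *Zfp146* cluster, and *Zfp747* at 0.20 and *Zfp688* at -0.27 that of *Zfp553* to *Zfp646*. Both clusters of 4 members, with *Zfp583* (-0.49) and *Zfp787* (-0.12) or *Zfp954* (-0.40) and *Zfp773* (-0.06) at their ends, lay below 0 throughout.

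The remaining clusters were small. On chromosome 8, *Zfp709* at 1.30 shared a cluster of 4 with *Zfp961* at -0.24, and *Zfp930* at -0.43 one with *Zfp964* at 0.29. On chromosome 9, *Zfp810* at 1.29 stood beside *Zfp653* at -0.01, *Zfp653* being at 0.02 with library totals in place of TMM factors. On chromosome 6, *Zfp282* had -0.41 and *Zfp956* had 0.17. By chromosome, the members' medians were 0.52 on chromosome 4 (12 of 13 above 0), -0.26 on chromosome 13, -0.21 on chromosome 17 and -0.10 on chromosome 7. All tested IDs of these chromosomes had medians of 0.13, -0.22, -0.14 and 0.02.

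Members with a known role are given by group. Of 28 such members, 0 were called by edgeR's quasi-likelihood, exact and likelihood ratio tests or by DESeq2, all without a term for passage. In each of these, 0 had an unadjusted p under 0.05. Over all tested IDs the quasi-likelihood test called 2.75% and left 12.8% at an unadjusted p under 0.05. For 28 genes, 0 called lies near that share. With the replicate block 1 was called, *Zfp462*, against 7.88% of all tested IDs, and 2 had an unadjusted p under 0.05. *Zfp423*, a determinant of preadipocytes, had 59 and 66 counts in *Tmpo* WT and 48 and 60 in *Tmpo* KO (log2 fold change -0.59). *Zfp503* had 1909 and 1999 against 1962 and 1723 (-0.45). In both genes the *Tmpo* KO libraries were lower in CPM than both *Tmpo* WT libraries. *Zfp521*, which opposes adipogenesis, had 1725 and 2306 counts in *Tmpo* WT and 1218 and 3397 in *Tmpo* KO, so that it was lower in *Tmpo* KO at passage 34 and higher at passage 42. *Zfp704* had -0.11.

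Of 6 listed repressors of imprinted genes and retroelements, 4 were members. *Zfp57*, which protects imprints, had 45 and 104 counts in *Tmpo* WT and 45 and 120 in *Tmpo* KO. *Zfp445*, with the same function, had 717 and 1084 against 815 and 1431 (log2 fold change -0.06). *Zfp809*, which silences murine leukemia viruses, had 20 and 26 against 36 and 41 (0.38). *Zfp932* had -0.03. The genotypes overlapped in CPM for all of these but *Zfp809*.

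*Zfp462*, a partner of the histone methyltransferases Ehmt1 and Ehmt2, had 1391 and 2797 counts in *Tmpo* WT and 2883 and 4738 in *Tmpo* KO (0.52, SE 0.251, edgeR adjusted p = 0.434, and 0.0437 with the replicate block). Its log2 difference between passages was 0.54, and the genotypes overlapped. *Zfp644*, which acts with the same enzymes, had -0.11. *Zfp687* (-0.31) and *Zfp592* (-0.24), which bind Zmynd8, and *Zfp827* (-0.08), which recruits the NuRD complex, completed the group.

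Among activators, *Zfp143* had 0.13, *Zfp335* 0.07, *Zfp148* -0.03 and the X-linked *Zfp711* -0.54. All 11 listed genes for RNA, ribosome, ubiquitin and SUMO proteins were members, and their median was -0.06. The lowest was *Zfp326*, of an elongation and splicing complex, at -0.46. The highest was *Zfp598*, the ubiquitin ligase for collided ribosomes, at 0.18. Between them lay *Zfp830* (-0.26), the SUMO ligase *Zfp451* (-0.23), the ubiquitin ligase *Zfp91* (-0.19), *Zfp638* (-0.16), the spindle protein *Zfp207* (-0.06), *Zfp106* (0.01), the ribosome biogenesis proteins *Zfp622* (0.04) and *Zfp593* (0.06), and *Zfp346* (0.04), which binds double-stranded RNA. With DESeq2 size factors the *Zfp106* value was -0.00151. *Zfp42*, *Zfp296* and *Zfp750*, genes of pluripotent cells or epidermis, did not reach 20 counts in every library.

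**Figure D5:**
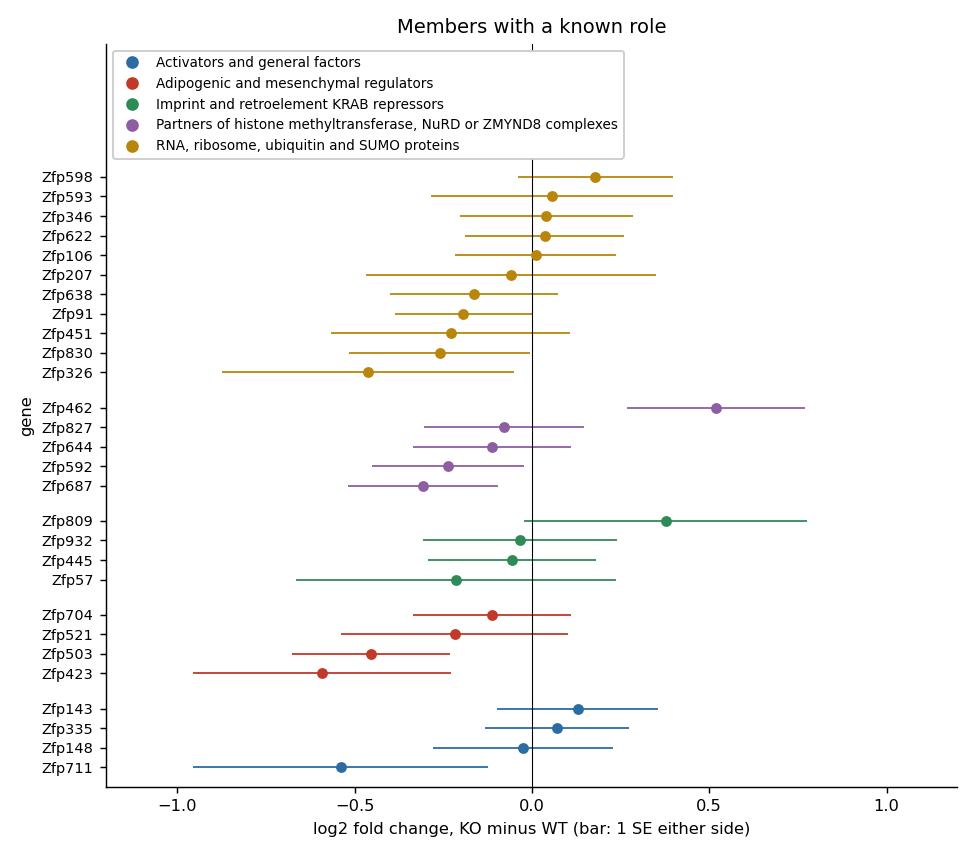
Log2 fold change, KO minus WT, with 1 SE either side, for the 28 members on the role lists, coloured by list. Values run from -0.59 for *Zfp423* to 0.52 for *Zfp462*, and none passed the test.

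The last comparison set passage 42 against passage 34, over both genotypes. At an adjusted p under 0.05, 4 members were called, all higher at passage 42, which is 1.57% of the members against 2.31% of all tested IDs (1.77% higher). *Zfp871* had 1894 and 1694 counts at passage 34 and 3720 and 3907 at passage 42, in *Tmpo* WT and KO, respectively (log2 fold change 0.77, SE 0.182, edgeR adjusted p = 0.00337). *Zfp395* had 608 and 585 counts at passage 34 and 1419 and 1226 at passage 42 (0.82, SE 0.215, edgeR adjusted p = 0.0117). For these 2 genes both libraries of passage 42 exceeded both of passage 34 in CPM. *Zfp207* had 125 and 144 counts, then 303 and 382 (1.02, edgeR adjusted p = 0.0385), and *Zfp521* 1725 and 1218, then 2306 and 3397 (0.63, edgeR adjusted p = 0.0409). *Zfp207* also separated by passage, and *Zfp521* did so by a narrow gap, 145 CPM against 147 CPM in *Tmpo* WT. *Zfp462* (0.54), *Zfp407* (0.58), *Zfp148* (0.52) and *Zfp759* (1.11) had the next smallest p-values, with edgeR adjusted values from 0.0894 to 0.139. Of the 255 members, 180 had a value above 0, against 7072 of 13855 tested IDs. The median was 0.14, compared to 0.01 over all tested IDs. Between the members' CPM quartiles, 2207 of 3776 tested IDs were above 0, with a median of 0.065. With DESeq2, 0 members were called, 8 had an unadjusted p under 0.05, and 0.289% of all tested IDs were called.

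Other zinc finger families, chosen by the same count limit, had medians between -0.17 for 21 genes named Zfp with a number and a letter, and 0.26 for 23 Klf and Sp genes. Zbtb (28 genes), Zscan and Zkscan (9), Zc3h (16) and Zdhhc (16) lay between -0.03 and 0.06. None of these 6 families held a gene called by edgeR's quasi-likelihood test, against 2.75% of all tested IDs. Genes at an unadjusted p under 0.05 numbered 0 in Zfp with a letter, 1 in Zbtb and 0 in Zscan and Zkscan. They numbered 2 in Klf and Sp, 0 in Zc3h and 3 in Zdhhc, and 12.8% of all tested IDs had such a p. DESeq2 called *Klf15*, *Zdhhc15* and *Zdhhc20* in these families, and 3.93% of all tested IDs. The same genes were called by edgeR's exact test (4.42% of all tested IDs), its likelihood ratio test (4.60%) and with the replicate block (7.88%).

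Promoter windows of 300 bases, 250 before to 50 after the start, were matched to 212 members. They held a median of 14 CpG, or 10 for KRAB matches and 17 for the others, compared to 20 for genes of all tested IDs and 7 for all genes. CCAAT, on either strand, was found in 48.6% of the members' windows and in 61.3% of those with a KRAB match, compared to 38.5% for tested genes and 37.9% for all genes. GGGCGG was found in 46.7%, compared to 60.9% and 35.9%. TATAAA was found in 6.13%, compared to 7.97% and 14.2%. These are matches of letters in fixed windows and show no bound site.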

How the data were processed

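RNA sequencing of 4 libraries of immortalized mouse dermal fibroblasts was analysed. The authors deposited raw counts per RefSeq transcript ID, made with cutadapt, TopHat2 version 2.0.9 on NCBI37/mm9 and htseq-count, with reads assigned to several IDs set aside as ambiguous. Nothing read here states whether counting used strand, and reads of overlapping genes then cannot be told apart. This touches 49 members that overlap a gene on the other strand and 25 that overlap 1 on the same strand. Reads in no feature (49.9% to 56.5% of all reads) and ambiguous reads (12.1% to 13.4%) stayed out of library sizes and tests.

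Members and gene lists were chosen with earlier results of these data known. For each symbol the ID with the highest summed count was used. Symbols came from RefSeq (GRCm38.p6, names only) and positions from GENCODE vM1 (NCBIM37). The design named RefSeq proteins for the KRAB pattern and the finger counts, and translated GENCODE coding sequences were used in their place. Promoter sequences came from RefSeq (GRCm38.p6).

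Genotypes were compared with edgeR 4.0.16 in R 4.3.3 (TMM factors and the quasi-likelihood test, with p-values adjusted by Benjamini-Hochberg and called under 0.05) over the 13855 IDs that reached 1 CPM in the 2 replicates of 1 genotype or more. The biological coefficient of variation was 21.8%. Passages were compared with genotype as a second term. SEs are the log2 fold change over the square root of F. Differences within a passage are of log2 CPM with a prior count of 2, from 1 library per genotype, and have no test. An exact permutation test of 2 against 2 libraries cannot give a two-sided p under 0.333. DESeq2 1.42.0 and other settings served as alternatives. Named are the members that passed, the 10 highest and 10 lowest, the most and least abundant, role list members, those next to the count limit, called genes outside it, the 8 smallest passage p-values and cluster extremes. No gene had 20 or more counts in both libraries of 1 genotype and under 5 in both of the other. Counting error and depth limit the least abundant members.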

Additional observations from a re-analysis of the deposited data

Results flagged for a closer look

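The difference between genotypes took opposite signs at the 2 passages for 2 named members by more than 0.25 on the log2 scale at each. *Zfp521* differed by -0.95 at passage 34 and by 0.26 at passage 42, so the later difference was 1.21 higher. *Zfp688* differed by -1.10 and 0.33, which is 1.43 apart, on 36 to 98 counts per library. Each passage has 1 library per genotype, so the difference between passages was not tested.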

How the results depend on the processing

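Under other scalings, filters and limits, with all 4 libraries, the median log2 fold change of the members stayed between -0.09 and -0.04, and the number of gene clusters was 24 with a gap of 250 kb and 31 with a gap of 1 Mb. The number of members called between genotypes was 1 with RLE size factors, library totals, DESeq2, counts summed per gene, 1 CPM in all libraries and member limits of 10 or 50 counts, 2 with edgeR's exact and likelihood ratio tests (*Zfp709* and *Zfp951*, with 4.42% and 4.60% of all tested IDs called) and 3 with no filter on low counts (*Zfp709*, *Zfp810* and *Zfp951*, with 2.98% of all tested IDs called). With the replicate block it was 7 (*Zfp365*, *Zfp462*, *Zfp53*, *Zfp618*, *Zfp709*, *Zfp810* and *Zfp951*), while 7.88% of all tested IDs were called. The replicate number stands for the passage, the labels name no shared batch, and the design had set the block as an alternative. Deviations from the genotype mean correlated at 0.175 between the *Tmpo* WT and KO libraries of replicate 1. With 2 libraries per genotype, replicate 2 mirrors these deviations and gives no second value. Leaving out 1 library gave between 0 and 15 called members, 0 without *Tmpo* WT replicate 1 (7 at an unadjusted p under 0.05, and 1.21% of all tested IDs called) and 15 without *Tmpo* KO replicate 2 (12 of them lower, 5.88% of the members against 8.52% of all tested IDs), and a median log2 fold change between -0.24 and 0.034. In these fits the lone library is assumed to vary like the others. Between passages, 2 members were called with RLE size factors and with no filter (1.98% and 0.994% of all tested IDs), and 0 with DESeq2 (8 at an unadjusted p under 0.05, and 0.289% of all tested IDs called). The cause was not tested. Library totals turned *Zfp101* to 0.0084, *Zfp65* to 0.015 and *Zfp653* to 0.017, RLE and DESeq2 turned *Zfp106* to -0.00151 each, and the block turned *Zfp65* to 0.0020. The pairs that follow are the lowest and highest log2 fold change over the 4 fits that each leave out 1 library. Neither end is the value with all libraries. Without 1 library, the sign changed for 39 named genes, none of them called between genotypes with all libraries: *Zfp57* from -0.97 to 0.25, *Zfp65* from -0.16 to 0.19, *Zfp101* from -0.18 to 0.087, *Zfp106* from -0.22 to 0.21, *Zfp143* from -0.029 to 0.22, *Zfp148* from -0.48 to 0.28, *Zfp207* from -0.80 to 0.45, *Zfp277* from -0.087 to 0.41, *Zfp329* from -0.082 to 0.21, *Zfp335* from -0.042 to 0.21, *Zfp346* from -0.11 to 0.23, *Zfp366* from -0.50 to 0.16, *Zfp407* from -0.13 to 0.68, *Zfp445* from -0.41 to 0.19, *Zfp451* from -0.80 to 0.14, *Zfp455* from -1.34 to 0.047, *Zfp488* from -0.068 to 0.27, *Zfp493* from -0.033 to 0.72, *Zfp521* from -1.01 to 0.26, *Zfp575* from -0.19 to 0.48, *Zfp593* from -0.13 to 0.20, *Zfp598* from -0.085 to 0.35, *Zfp622* from -0.11 to 0.20, *Zfp638* from -0.51 to 0.071, *Zfp644* from -0.46 to 0.13, *Zfp653* from -0.066 to 0.023, *Zfp688* from -1.04 to 0.19, *Zfp704* from -0.33 to 0.13, *Zfp759* from -1.65 to 0.27, *Zfp784* from -1.12 to 0.053, *Zfp786* from -0.28 to 0.72, *Zfp787* from -0.32 to 0.13, *Zfp791* from -0.30 to 0.11, *Zfp827* from -0.40 to 0.14, *Zfp871* from -0.97 to 0.021, *Zfp932* from -0.17 to 0.13, *Zfp933* from -0.19 to 0.17, *Zfp956* from -0.17 to 0.40, *Zfp964* from -0.068 to 0.53.

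The counts behind the least abundant members limit their precision, the lowest library of *Zfp456*, *Zfp809* and *Zfp982* having 20, and 2 libraries per genotype limit that of all members.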

Other observations

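In all, 21 of the 255 members, *Zfp521* and *Zfp688* included, had differences beyond 0.25 with opposite signs at the 2 passages. Of them, 15 were lower in *Tmpo* KO at passage 34 and higher at passage 42, and 6 went the other way. The share of all tested IDs that do so was not counted, so these numbers show no trait of the members.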
